A study of Mus musculus with 8 samples.

Results

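The regions near 10 immediate early genes of mouse pre-B cells are described here: Fos, Fosb, Fosl2, Jun, Junb, Jund, Egr1, Ier2, Atf3 and Dusp1. A region belonged to a gene when the summit of a peak lay in its GENCODE gene body or within 20 kb of it, on the GRCm38 build. This gave 162 of the 174718 regions of the whole series, with 64 found in every one of the 8 lists (the tested regions), 129 in at least 2 lists and 33 in a single list; no region was shared by a pair of genes. The assay was ATAC-seq: Tn5 transposase inserts adapters where chromatin is open, and the reads pile up there. All 8 libraries were made from 1 mouse pre-B line, B3, transduced with Ikaros-ERt2. In this protein IKZF1 (Ikaros), a zinc finger factor that restrains pre-B cell growth, carries an estrogen receptor part that keeps it out of the nucleus until 4-hydroxytamoxifen (4-OHT) is added. The 0 h group of 2 libraries was untreated, and the other 3 groups of 2 were treated with 4-OHT at 500 nM during 30 min, 1 h and 2 h. The controls carried the same construct and got no drug, so effects of the drug, its solvent and Ikaros cannot be told apart, and the sources used here do not say whether the replicates were separate cultures.

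Immediate early genes are switched on within minutes by growth signals, stress or handling of cells, without new protein synthesis, and their transcripts decay soon afterwards. Fos, Fosb and Fosl2 encode the FOS-type subunits and Jun, Junb and Jund the JUN-type subunits of AP-1, a dimer that binds the word TGANTCA and, with ATF partners, the cyclic AMP response element (CRE) TGACGTCA. Serum response factor drives several of these genes through the CArG box of their promoters, and CREB-type factors act through the CRE. Since dissociation, cooling and long handling induce them, their expression is often read as a marker of stress in a sample; the question put to the data was whether they moved over 0 h, 30 min, 1 h and 2 h.

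The lists held between 85903 and 103897 peaks, with the fewest in replicate 2 of 0 h, and the background of the caller, which stands for depth, was 0.26 to 0.405 fragments per base. At the summit of the median peak lay 11 to 14 fragments, so a peak near that level is known only coarsely. Peaks lay within 1 kb of a start site of the pre-B genes Cd79a, Cd79b, Igll1, Pax5 and Ebf1 in all 8 lists and of Rag1 in 7; Vpreb1 had one in 4, all of 0 h or 30 min. Of the markers of other cell types, Cd3e, Itgam, Csf1r, Gata1 and Alb had a peak in 0 lists, Lyz2 in 2 (both of 0 h), Cd4 in 4 (1 h and 2 h) and Col1a1 in 8; whether cells of other kinds were present was not tested. At an adjusted p under 0.01, limma called 0% of the 47875 tested regions at 30 min, 1.02% lower and 0.986% higher at 1 h, and 2.73% lower and 2.5% higher at 2 h.

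The DNA of some member regions is shown first, because words of the factors named above lie in many of them and the values that follow belong to them. Each sequence is the GRCm38 reference within 100 bp of the summit, read 5′ to 3′ on the strand of the gene, with transcribed exons left out. Capitals mark the CArG box, the CRE or the short CRE word TGACGT, the AP-1 word, the Jun word TGACATCA, a variant known from the Jun promoter, and TGGGAA, a word that Ikaros binds; all were searched on both strands. The short word lies in the full CRE on both strands, and no other pair of these words contains one another. Start-site windows of Fos, Fosl2, Jun, Jund, Ier2 and Dusp1 come first, all with a marked word. Those of Fosb, Junb, Egr1 and Atf3 are not printed. In the start-site regions of Junb and Atf3 none of these words was found within 100 bp of the summit.
Fos upstream of its start, chr12:85473441-85473641, + strand: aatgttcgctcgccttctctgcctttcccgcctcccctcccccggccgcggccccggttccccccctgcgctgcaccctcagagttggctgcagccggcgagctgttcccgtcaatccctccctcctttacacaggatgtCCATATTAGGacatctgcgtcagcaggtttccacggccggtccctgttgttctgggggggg
Fos at its start, chr12:85473758-85473889, + strand: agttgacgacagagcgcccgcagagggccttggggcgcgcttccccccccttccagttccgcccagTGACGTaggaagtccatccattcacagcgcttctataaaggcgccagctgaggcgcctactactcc
Fosl2, chr5:32135678-32135800, + strand: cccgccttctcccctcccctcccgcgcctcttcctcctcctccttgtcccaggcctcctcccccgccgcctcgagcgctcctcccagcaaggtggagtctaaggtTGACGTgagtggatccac
Jun, chr4:95052223-95052361, - strand: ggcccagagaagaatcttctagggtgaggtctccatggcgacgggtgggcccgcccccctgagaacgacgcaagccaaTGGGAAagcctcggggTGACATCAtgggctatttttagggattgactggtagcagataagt
Jund, chr8:70698732-70698932, + strand: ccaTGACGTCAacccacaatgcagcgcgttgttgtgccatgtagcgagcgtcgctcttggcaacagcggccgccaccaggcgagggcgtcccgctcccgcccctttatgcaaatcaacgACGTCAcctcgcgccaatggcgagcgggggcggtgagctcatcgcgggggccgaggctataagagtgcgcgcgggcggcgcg
Ier2, chr8:84662853-84662967, - strand: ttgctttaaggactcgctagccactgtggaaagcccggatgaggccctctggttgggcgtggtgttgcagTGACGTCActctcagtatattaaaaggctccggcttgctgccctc
Dusp1 at its usual start, chr17:26508554-26508754, - strand: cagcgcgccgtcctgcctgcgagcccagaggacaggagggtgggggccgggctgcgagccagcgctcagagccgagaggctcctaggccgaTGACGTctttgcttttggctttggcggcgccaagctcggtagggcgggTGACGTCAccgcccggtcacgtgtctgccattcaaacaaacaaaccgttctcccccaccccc
The next sequences, chosen after values were seen, are from regions away from the start that had lower values or no peak at 2 h: a region near Junb that was called lower, regions near Jun and Fos that were lost, and regions in introns of Atf3 and Dusp1 that had fewer fragments.
Junb, chr8:84989905-84990105, - strand: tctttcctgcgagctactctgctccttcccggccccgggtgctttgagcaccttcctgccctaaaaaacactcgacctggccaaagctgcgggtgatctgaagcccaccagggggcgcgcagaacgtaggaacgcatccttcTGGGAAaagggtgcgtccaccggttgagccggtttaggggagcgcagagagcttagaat
Jun, chr4:95063852-95064052, - strand: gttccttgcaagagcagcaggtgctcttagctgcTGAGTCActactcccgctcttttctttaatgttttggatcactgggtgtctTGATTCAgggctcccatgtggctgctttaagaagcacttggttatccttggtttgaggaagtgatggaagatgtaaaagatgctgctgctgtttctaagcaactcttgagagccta
Fos, chr12:85457763-85457963, + strand: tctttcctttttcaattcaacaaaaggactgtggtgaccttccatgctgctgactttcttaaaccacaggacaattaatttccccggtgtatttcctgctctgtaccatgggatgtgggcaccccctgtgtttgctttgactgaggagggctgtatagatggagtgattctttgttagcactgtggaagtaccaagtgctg
Atf3, chr1:191197993-191198193, - strand: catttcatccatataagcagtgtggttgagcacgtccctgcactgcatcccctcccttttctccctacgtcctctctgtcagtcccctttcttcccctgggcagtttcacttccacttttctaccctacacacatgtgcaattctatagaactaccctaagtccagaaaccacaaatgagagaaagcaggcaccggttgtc
Dusp1, chr17:26538228-26538354, - strand: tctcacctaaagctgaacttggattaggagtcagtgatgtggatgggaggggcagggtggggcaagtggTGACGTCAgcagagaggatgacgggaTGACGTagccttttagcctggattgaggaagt

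Over all windows of 201 bases, the short CRE word was found in 19 of the 64 tested member regions (29.7%) and in 4.16% of all tested regions. Among the 22 tested member regions within 1 kb of an own start site it was in 9 (40.9%), against 8.26% of the 14290 tested regions at any start site, so that the share was also higher among start sites. The CArG box was in 7 of the 64 (10.9%), against 0.792% of all tested regions, and the full CRE in 4 (6.25%), against 0.923%. The AP-1 word itself was in 4 (6.25%), the same share as in all tested regions (6.25%), and TGGGAA was in 11 (17.2%), against 12.9%. These shares describe the sequence of 10 chosen genes and say nothing of which factor was bound.

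Start-site regions were compared first. Values are percentiles of the fold at the summit over the local background within each list (100 is the highest), given as replicates 1 and 2; where 4 pairs stand without times, they follow the order untreated, 30 min, 1 h and 2 h. The start-site region is the one within 1 kb of an annotated start with the highest mean percentile. None of the 10 was called at any time in limma, which was fitted on normal scores of the percentile with a threshold of adjusted p under 0.01. Their lowest adjusted p was 0.24 at 30 min, 0.202 at 1 h and 0.271 at 2 h, and the count with an unadjusted p under 0.05 was 1, 0 and 0.

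Among the FOS-type genes, the Fos region (chr12:85473760-85474000, with the summit 32 bases before the start) stood at 86.3 and 79 in untreated cells, 90.4 and 81.4 after 30 min, 82.8 and 74.4 after 1 h, and 76.2 and 76 after 2 h. Only the 2 h libraries were both below both of 0 h, with a shift of -0.24 ± 0.23 (SE) in normal scores (limma adjusted p = 0.481). The neighbouring Fos region with the CArG box, at -349 bp, was at 50.1 and 61.7, 71.8 and 65.8, 69 and 56.5, and 38.2 and 44.4, highest at 30 min and lowest at 2 h. That course gave an adjusted p of 0.56 in limma for 30 min against the mean of 0 h and 2 h, and of 0.254 for 2 h against 0 h. Fosb encodes a close relative of FOS, and its start-site region (chr7:19308548-19308877) stood at 85.3 and 86.6 in untreated cells, 92.2 and 89.5 after 30 min, 87.5 and 76.2 after 1 h, and 87.7 and 86.7 after 2 h. The region at the first start of Fosb (-328 bp), with a CArG box, was at 75 to 86.2 over the 8 lists and the groups overlapped. Fosl2, which encodes FRA2, had a single tested region, at its start (chr5:32135692-32136033). It stood at 65.4 and 77.2, 73.1 and 81.7, 57.8 and 52.9, and 57.5 and 61.3, so that the 4 later libraries lay below the 4 of 0 h and 30 min (adjusted p = 0.202 at 1 h and 0.299 at 2 h in limma).

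Of the JUN-type genes none was called either. The Jun region (chr4:95052119-95052858) is the widest of the start-site regions and stood at 84.2 and 83.6 in untreated cells, 78.3 and 78.3 after 30 min, 75 and 77.9 after 1 h, and 76.9 and 73.5 after 2 h. All 6 treated libraries were below both of 0 h, and the shift at 2 h was -0.31 ± 0.19 (limma adjusted p = 0.271). Junb stood at 51.1 and 72.3, 61.1 and 59.8, 51.5 and 53.6, and 42.2 and 69, with overlapping groups and replicates that differed by up to 26.8 percentile points. Jund, whose transcript is the least inducible of the family, was at 69.7 and 73.9, 73.2 and 71.6, 66.2 and 75.7, and 68.8 and 75.2, and its shift at 2 h was 0.01 ± 0.21 (adjusted p = 0.985).

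Among the other genes, the Ier2 region (chr8:84662765-84663017) stood at 65.5 and 72.5 at 0 h, and at 72.9 to 78.9 in the treated libraries, all above both of 0 h (adjusted p = 0.477 in limma at 2 h). Ier2 encodes a small nuclear protein of the early response. Egr1 encodes a zinc finger factor, and its region by the rule lies at a second annotated start (chr18:34861052-34861195, at +1285 bp). It stood at 55.1 and 50.7, 52.1 and 45.9, 50.7 and 61.1, and 60.4 and 63.2. The region on the first start of Egr1 (chr18:34859786-34860109) was named after its values were seen: it stood at 63.4 and 69.7 in untreated cells, 55.3 and 27.4 after 30 min, 50.3 and 51.1 after 1 h, and 60.2 and 61.1 after 2 h. All 6 treated libraries were below both of 0 h (adjusted p = 0.194, 0.301 and 0.688 in limma). Atf3, a stress-induced repressor of the ATF family, has a start site at the 5′ end of its record with no region within 1 kb of it, and a second start inside it. The region at that second start (chr1:191183150-191183698) was at 72.2 and 67.2 in untreated cells, 57 and 39.7 after 30 min, 69 and 56.4 after 1 h, and 64.5 and 50.7 after 2 h (adjusted p = 0.24 at 30 min and 0.366 at 2 h). Dusp1 encodes a phosphatase that inactivates MAP kinases. The record of Dusp1 spans 56539 bases because of 1 long transcript, and the region with the highest percentile lies at that transcript's start, 30 bases from a start of Ergic1 (chr17:26561352-26561631), at 76.4 to 95.05. The region at the usual start of Dusp1, with the CRE (chr17:26508413-26508740), was at 58.3 and 68, 73.2 and 76.3, 74.4 and 56.4, and 71 and 62, with overlap at 1 h and 2 h.

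**Figure D1:**
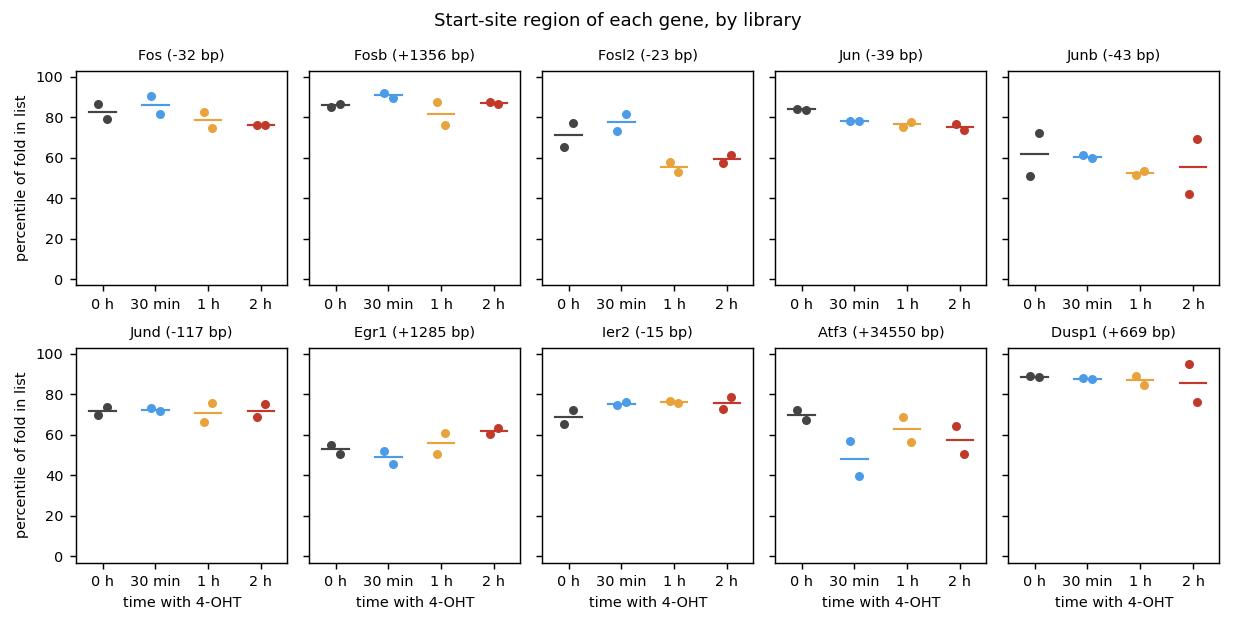
Percentile of the fold at the summit within each list (vertical, 0 to 100) at the start-site region of each of the 10 genes, by time with 4-OHT (horizontal); points are libraries, bars the mean of 2, and the distance from the gene start is in each title. The 10 regions stand at 39.7 or higher in every library, and none was called.

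Over all 64 tested regions, 0 were called lower and 0 higher at 30 min (background 0% and 0%), with an unadjusted p under 0.05 in limma for 3 lower and 6 higher (background 6.35% and 14%). At 1 h, 0 were called in either direction (background 1.02% lower and 0.986% higher), with an unadjusted p under 0.05 for 4 lower and 12 higher (background 11.4% and 20.5%). At 2 h, 1 was called lower (1.56%, background 2.73%) and 0 higher (background 2.5%), with 5 and 10 at an unadjusted p under 0.05 (background 13.8% and 22.7%). For 30 min against the mean of 0 h and 2 h, a contrast for an early and brief rise, 0 were called (background 0%). At an adjusted p under 0.05 the background was 0% as well, so these calls cannot set the members apart. An unadjusted p under 0.05 in limma was found for 1 lower and 4 higher (background 2.69% and 5.46%), and the lowest adjusted p was 0.528. Whether open chromatin follows the brief course of the transcripts was not tested. The median shift of the 64 was 0.13 at 30 min, 0.07 at 1 h and 0.05 at 2 h, beside 0.13, 0.17 and 0.17 over all tested regions. The treated lists were longer than the 0 h list of the same replicate number, and a percentile counts the peaks below. Both 30 min libraries were above both of 0 h in 24 of the 64 (37.5%, background 33.9%) and below in 8 (12.5%, background 17.7%). At 2 h these counts were 22 above (34.4%, background 40.6%) and 18 below (28.1%, background 24.3%). The shares of the member regions were therefore near those of all tested regions.

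**Figure D2:**
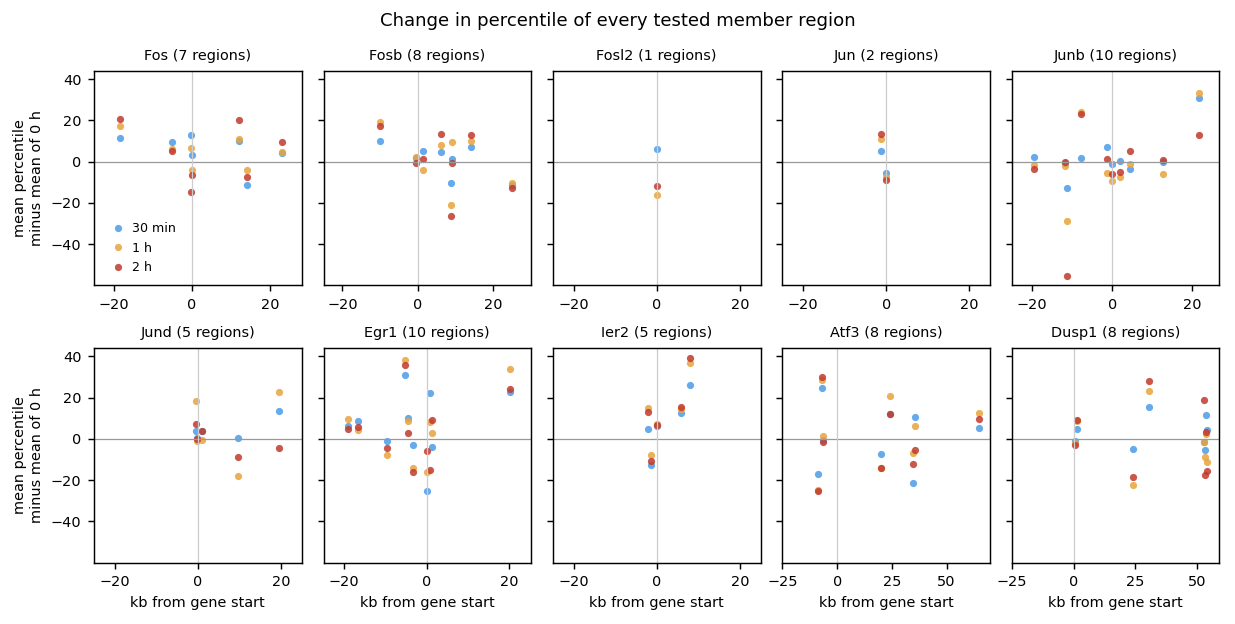
Mean percentile at 30 min, 1 h and 2 h minus the mean of 0 h (vertical) for each of the 64 tested regions against its distance from the gene start (horizontal, kb, positive along the gene). Points lie on both sides of 0, and the lowest point is the Junb region at -11287 bp with a mean change of -55.2 at 2 h.

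The called region lies in the window of Junb, at -11287 bp (chr8:84989928-84990070), between genes and within 1 kb of a start site of Hook2, which encodes an adaptor of the microtubule motor dynein. It stood at 68.6 and 52.7 in untreated cells, 44.6 and 50.9 after 30 min, 25.5 and 38.4 after 1 h, and 4.59 and 6.27 after 2 h. Every treated library was below both of 0 h and the values stepped down with time, to a shift of -1.88 ± 0.23 at 2 h (adjusted p = 0.00286 in limma). The fragments at its summit were 35 and 19, 22 and 21, 16 and 19, and 12 and 12, while the local background was 1.64 to 2.41 and did not follow (adjusted p = 0.573). The call was lost without replicate 1 of 0 h or either replicate of 2 h, where the shift was -1.68, -1.81 and -1.96. Such fits leave 1 library in a group and can call little over all tested regions, so the lost call is not particular to this region. The Junb region holds TGGGAA, as printed above. The region beside it, also within 1 kb of the Hook2 start (-11761 bp), stayed at 94.8 to 98.5 in all 8 lists.

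A further 7 regions had an adjusted p between 0.01 and 0.05 at 2 h, 2 of them lower and 5 higher, which makes 3 lower (4.69%, background 8.52%) and 5 higher (7.81%, background 11.8%) at the looser threshold of 0.05. At that threshold 2 were lower and 3 higher at 1 h (background 5.42% and 7.96%), and 0 and 0 at 30 min (background 0.508% and 0.698%). The 7 lay 5177 to 30431 bases from the gene start. At Egr1, the region at -5177 bp (chr18:34854572-34854747) stood at 47.7 and 43.8 in untreated cells, 79.2 and 74.3 after 30 min, 83.8 and 84.3 after 1 h, and 83.8 and 79.1 after 2 h. The treated libraries were all far above both of 0 h already at 30 min (limma adjusted p = 0.0693 at 30 min, 0.0122 at 1 h and 0.0109 at 2 h). Its summit held 35 and 25 fragments untreated and 47 to 65 with 4-OHT, while the local background around it was lower at 2 h (a log2 change of -0.43, adjusted p = 0.00562). At Ier2, the region at +8055 bp (chr8:84654684-84654849) was at 27.1 and 38.8, 50.7 and 67.4, 72.5 and 66.6, and 71.8 and 72.9 (adjusted p = 0.0165 at 2 h). At Fos, the region at -18456 bp (chr12:85455171-85455577) was at 67.2 and 71.6, 85.5 and 76.7, 86.3 and 87, and 88.2 and 91.9 (adjusted p = 0.0322). In each of these 3, picked for an adjusted p under 0.05 at 2 h, both libraries of every later time were above both of 0 h. Taken 1 time point by itself, this held for 33.9% of all tested regions at 30 min, 39.1% at 1 h and 40.6% at 2 h.

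Atf3 had a region on each side. The intronic region at +19946 bp (chr1:191197958-191198308) was at 96.7 and 98 in untreated cells, 87 and 93.3 after 30 min, 84.3 and 82.6 after 1 h, and 79.2 and 87 after 2 h (limma adjusted p = 0.019 at 2 h). The region at -6935 bp (chr1:191224904-191225089), within 1 kb of the start of the non-coding gene D730003I15Rik, was at 59.4 and 48, 79.4 and 77.2, 85.5 and 78.7, and 82 and 85 (adjusted p = 0.0215). Neither passed the threshold of 0.01, and their shifts had opposite signs. Dusp1 likewise had an intronic region at +23874 bp (chr17:26538162-26538363), within 1 kb of a start of AC122252.1 and with the CRE shown above, at 96.2 and 88.2, 86.8 and 88.2, 72.5 and 66.9, and 69 and 78.6 (adjusted p = 0.0432). The other, at +30431 bp, was at 21.2 and 28.6, 43.2 and 38, 39.3 and 56.6, and 55.8 and 50.6 (adjusted p = 0.0431). Both Dusp1 regions lie more than 20 kb upstream of its usual start, so only the long transcript brings them into the window. Of the other genes, the largest change of mean percentile from 0 h to 2 h was -26.1 at Fosb (+8775 bp, within 1 kb of a start of Gm26802, adjusted p = 0.117), -11.9 at Fosl2 (its start), 13.4 at Jun (-1175 bp, adjusted p = 0.239) and -8.92 at Jund (+9687 bp, adjusted p = 0.647).

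**Figure D3:**
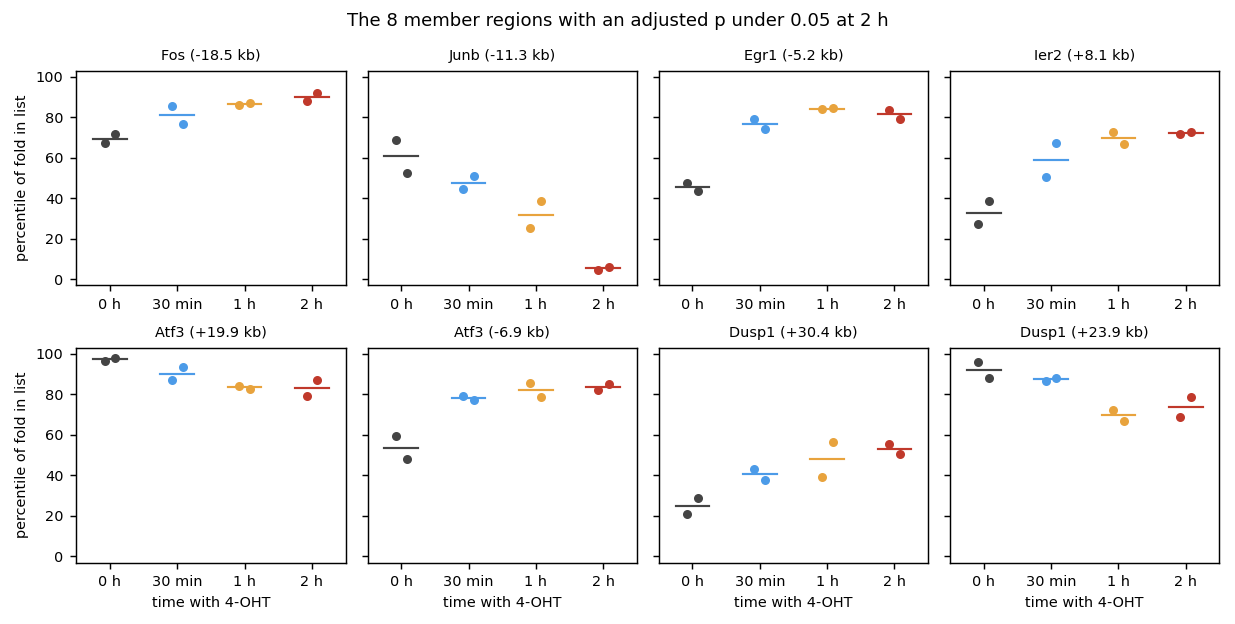
Percentile within each list (vertical) by time with 4-OHT (horizontal) for the 8 member regions with an adjusted p under 0.05 at 2 h; points are libraries, bars the mean of 2, and the distance from the gene start is in each title. Only the Junb region, at 4.59 and 6.27 at 2 h, passed the threshold of 0.01.

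Fragments at the summit, on a log2 scale centred on the median of each library, gave a second view, since the percentile rests on a ratio to the local background. On this scale limma called 4 of the 64 lower and 2 higher at 2 h (background 9.37% and 5.43%), and 3 lower and 1 higher at 1 h (background 6.63% and 3.48%). At 30 min it called 0 (background 1.3% and 0.322%). The intronic Atf3 region at +19946 bp had 100 and 80 fragments in untreated cells, 54 and 54 after 30 min, 41 and 35 after 1 h, and 35 and 39 after 2 h. It fell by 1.46 ± 0.21 on the log2 scale at 2 h (adjusted p = 0.000964), while its mean percentile differed by -14.25 points. The Junb region at -11287 bp fell by 1.29 ± 0.24 (adjusted p = 0.00361). The Dusp1 region at +23874 bp, with 38 and 21, 25 and 24, 15 and 13, and 14 and 17 fragments, fell by 1.06 ± 0.24 (adjusted p = 0.00914). The region of Atf3 at -6935 bp, with 27 and 17, 46 and 38, 54 and 42, and 51 and 48 fragments, rose by 1.02 ± 0.2 (adjusted p = 0.00445). The Fos region at -18456 bp, with 24 and 21, 39 and 26, 41 and 40, and 52 and 49, rose by 0.99 ± 0.21 (adjusted p = 0.00723).

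Egr1 showed where the scales part. On its first start there were 65 and 52 fragments in untreated cells, 42 and 22 after 30 min, 30 and 29 after 1 h, and 37 and 33 after 2 h. All 6 treated libraries were below both of 0 h, and the log2 value fell by 1.16 at 1 h (limma adjusted p = 0.00826), with -0.92 ± 0.24 at 2 h (adjusted p = 0.0188). The region at -3437 bp of Egr1 had 68 and 66, 65 and 46, 36 and 41, and 40 and 34 fragments and fell by 1.04 ± 0.23 at 2 h (adjusted p = 0.00804). The local background, which the caller takes from the DNA around the summit, was lower there as well: at the first start of Egr1 it was 5.71 and 4.01 fragments per base in untreated cells, 4.4 and 3.13 after 30 min, 3.2 and 2.8 after 1 h, and 3.1 and 2.73 after 2 h. It fell by 0.5 on the centred log2 scale at 30 min (adjusted p = 0.00394) and by 0.81 ± 0.08 at 2 h (adjusted p = 0.000109). The percentile, which rests on a division by this background, was 60.2 and 61.1 at 2 h, where summit and surroundings both held fewer fragments than at 0 h.

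The local background was chosen as a measure after the data had been seen, and regions within a few kb share it, so its counts stand for loci and not for separate regions. At 2 h it was lower in 13 of the 64 and higher in 4 in limma (background 15.2% and 12.4%), and at 30 min lower in 8 and higher in 0 (background 6.54% and 2.68%). At 1 h the counts were 13 and 4 (background 12.8% and 9.38%). The 13 of 2 h were 6 of the 10 regions of Egr1, 4 of the 5 of Ier2 and 3 of the 8 of Atf3. At the start of Ier2 it was 5.01 and 3.1, 3.59 and 2.63, 3.39 and 2.73, and 2.84 and 2.71, and it fell by 0.6 ± 0.09 at 2 h (adjusted p = 0.000874), while the summit itself kept 45 to 60 fragments in every library (adjusted p = 0.249). In the intron of Atf3 at +24256 bp it was 2.71 and 2, 2.13 and 1.65, 1.6 and 1.35, and 1.48 and 1.31, and fell by 0.83 ± 0.08 (adjusted p = 7.98e-05). The 4 higher ones were the Fos region at -18456 bp, the 2 regions of Egr1 near Reep2 at -19177 and -16540 bp, and the Dusp1 region at +30431 bp. These raw values also carry the depth of each library, which was greatest in replicate 1 of 0 h and of 30 min.

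**Figure D4:**
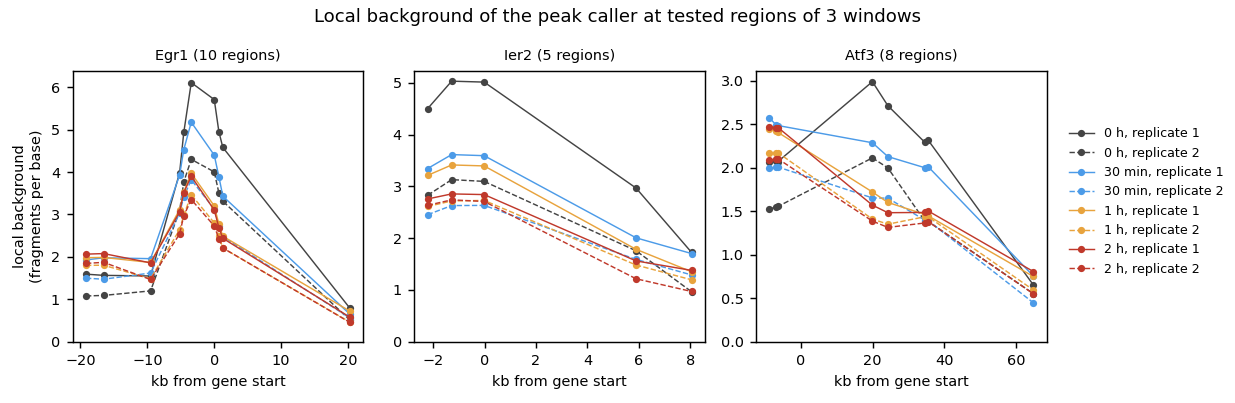
Local background of the caller in fragments per base (vertical) at the tested regions of Egr1, Ier2 and Atf3 against the distance from the gene start (horizontal, kb); solid lines are replicate 1 and dashed lines replicate 2, coloured by time, with no scaling for depth. At the first start of Egr1 the libraries of 1 h and 2 h lie at 2.73 to 3.2, below both of 0 h at 5.71 and 4.01.

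Presence of a peak was compared next. The 10 windows together held 100 and 91 peaks in untreated cells, 113 and 104 after 30 min, 113 and 101 after 1 h, and 110 and 107 after 2 h. All treated lists held more than both of 0 h, but in lists trimmed to equal length by p-value the counts were 97 and 91, 102 and 100, 94 and 88, and 94 and 95. A region was lost when both 0 h lists and neither list of a time had a peak, and gained when it was the other way round, and presence was compared without a test. Of the 162 regions, 3 were lost and 12 gained at 30 min (1.85% and 7.41%, background 4.36% and 4.31%), 6 and 15 at 1 h (3.7% and 9.26%, background 5.82% and 7.44%), and 10 and 20 at 2 h (6.17% and 12.3%, background 6.63% and 9.29%). In the lists of equal length, of 144 member regions, 4 were lost and 9 gained at 30 min (background 5.23% and 4.26%). There the counts were 9 and 11 at 1 h (background 7.48% and 6.72%), and 12 and 14 at 2 h (background 8.74% and 7.87%). The 10 start-site regions were chosen among regions with a peak in all 8 lists, so their presence could not vary. Other regions at a start did vary: the Fosb region at -22 bp had a peak in 3 lists and the Fosl2 region at -342 bp in 5.

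The lost regions with the most fragments, as a mean over the lists with a peak, lay more than 1 kb from the starts of their own genes. That of Jund lay within 1 kb of a start of Gm11175. The Ier2 region at +2810 bp (chr8:84659934-84660220) had 48 and 40 fragments at 0 h, then 16 in replicate 1 of 30 min and 16 in replicate 1 of 1 h, and no peak in the other 4 lists. The Fos region at -16027 bp (chr12:85457722-85457957) had 50 and 36 at 0 h and 14 and 10 at 30 min, and no peak at 1 h or 2 h. In percentiles this Fos region went from 93.6 and 90.6 to 37.3 and 20.4 before it was absent. The Jun region at -11730 bp (chr4:95063802-95064082), with both AP-1 words shown above, had 13 and 10, then 6 and 6, and no later peak; it was named after its values were seen. The others of the 5 with the most fragments were Jund at +1820 bp, with 20 and 14 at 0 h, no peak at 30 min, 23 and 22 at 1 h and none at 2 h, Ier2 at +1224 bp and Junb at -7213 bp. The return of the Jund peak at 1 h shows that presence alone can come and go between time points.

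The gained regions were led by Dusp1. Its intronic region at +29228 bp (chr17:26532815-26532976) had no peak at 0 h and 18 and 18, 26 and 25, and 42 and 31 fragments at 30 min, 1 h and 2 h. A region at -1732 bp of Jun (chr4:95053877-95054039) had none at 0 h and 21 and 24, 22 and 26, and 29 and 28. Both were therefore absent from both 0 h lists and present in all 6 treated ones. In percentiles the Jun region was low, at 5.25 and 19.6, 14 and 29.8, and 34.6 and 38.3, and the Dusp1 region was at 71.7 to 94.6. The region at +54486 bp of Dusp1, in a coding exon within 1 kb of the usual start (chr17:26507571-26507769), had none at 0 h and 24 and 12, 31 and 23, and 19 and 20. Junb at -4229 bp and Atf3 at +31402 bp had no peak at 0 h and 17 to 26 fragments in the 5 treated lists with a peak. Replicate 2 of 30 min had none in either. Their percentiles were 5.31 to 42.9 for Junb and 38.2 to 62.3 for Atf3.

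**Figure D5:**
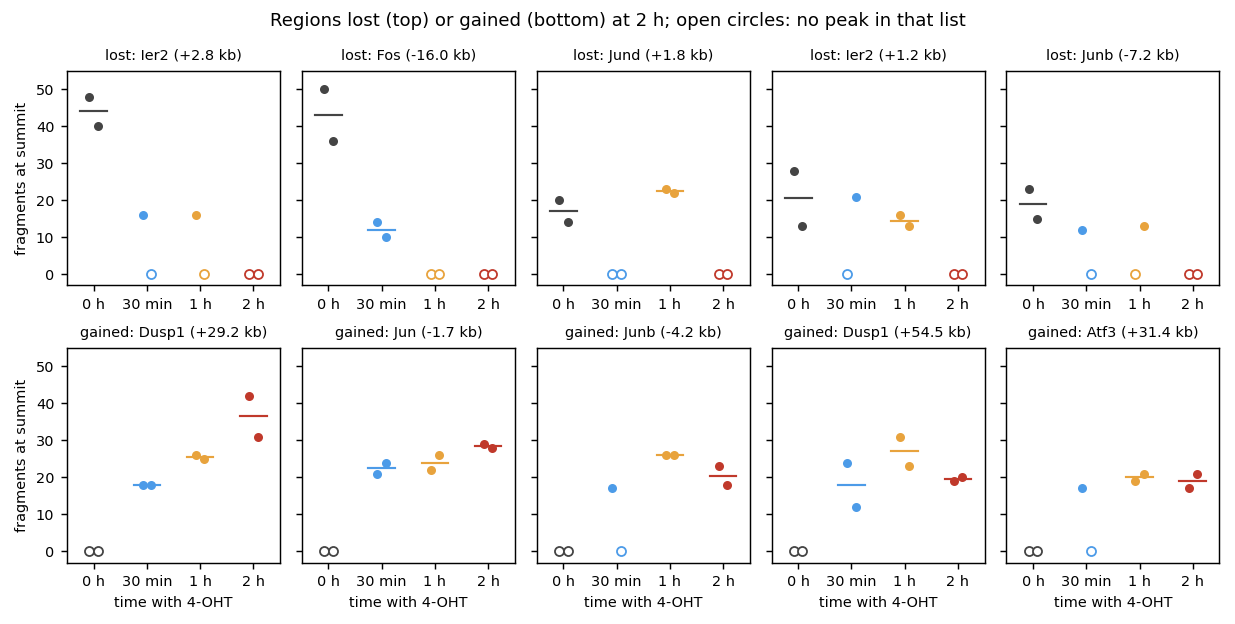
Fragments at the summit (vertical) by time with 4-OHT (horizontal) for the 5 lost (top) and 5 gained (bottom) regions at 2 h with the most fragments; filled points are libraries with a peak, bars the mean of 2, and open circles at 0 stand for lists without a peak, which does not mean 0 fragments. The Fos region at -16027 bp goes from 50 and 36 at 0 h to no peak at 1 h, and the Dusp1 region at +29228 bp from no peak to 42 and 31 at 2 h.

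Regions that hold the words of AP-1 were followed over the genome, since the AP-1 protein binds them. Of the 2993 tested regions with TGANTCA within 100 bp of the summit, 0 were called at 30 min, as of all tested regions. At 1 h 1.37% were lower and 1.27% higher, and at 2 h 3.44% and 3.54%, against 2.73% and 2.5% of all tested regions at 2 h. So the shares were somewhat above those of all regions in both directions, and the median shift at 2 h was 0.18, beside 0.17. Of the 442 regions with TGACGTCA, 1.58% were lower and 1.81% higher at 2 h. For comparison, 3.98% of the 6176 regions with TGGGAA were lower and 1.26% higher at 2 h. These shares are a description and were not tested.

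The other genes of the early response were counted by the same rule. The list of 40 genes had 524 regions, of which 192 were tested. In limma 0 of them were called at 30 min, with 43 at an unadjusted p under 0.05 (background 6.35% lower and 14% higher). At 1 h, 2 were lower and 2 higher (background 1.02% and 0.986%). At 2 h, 5 were lower and 9 higher (background 2.73% and 2.5%). The calls at 2 h in both directions together were 7.29% of the 192, to be set against both backgrounds together. By role, 1 lower and 2 higher at 2 h were among 41 tested regions of AP-1 subunits and partners, 3 and 5 among 127 of other early response genes, and 1 and 2 among 24 of heat shock genes. The 6 with the largest change were near Ier5, Batf, Csrnp1, Dnajb1, Klf2 and Fosl1. Batf encodes an AP-1 partner of lymphocytes, and its region (chr12:85679424-85680035) was at 92.2 and 93.9 in untreated cells, 65.1 and 46.3 after 30 min, 46.3 and 30.1 after 1 h, and 14.3 and 39.3 after 2 h (adjusted p = 0.00391). The region of Ier5 (chr1:155109439-155109766), an early response gene, was at 83.7 and 85.3 at 0 h and at 26.1 and 3.94 at 2 h (adjusted p = 0.00602), and that of Klf2, a transcription factor of resting lymphocytes, at 74.2 and 80.3 and at 14.6 and 19.4 (adjusted p = 0.00316). The higher ones were near Fosl1, which encodes FRA1, at 27.1 and 27.3 at 0 h and 87.8 and 81.1 at 2 h (adjusted p = 0.00359, in an intron of Fibp), Csrnp1 (adjusted p = 0.00353, in an intron of Cx3cr1) and the heat shock gene Dnajb1 (adjusted p = 0.00831). Another region of Dnajb1, at its start, was lower (adjusted p = 0.00344 in limma), and another of Ier5 was higher (adjusted p = 0.00685), so these genes each had called regions in both directions; both regions were named after their values were seen.

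The mean normal score of the 10 start-site regions was 0.64 and 0.71 in untreated cells, 0.71 and 0.61 after 30 min, 0.59 and 0.52 after 1 h, and 0.6 and 0.58 after 2 h. Among the start-site regions of 10039 other protein-coding genes, those most like this mean were Mars2 (Pearson r = 0.965 over 8 libraries), and Acd and Pard6a, which share 1 region (r = 0.964). These are the highest of many values over 8 points that share library depth, and they describe likeness only.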

How the data were processed

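ATAC-seq libraries of B3 cells (n = 8) were analysed. The authors aligned reads with BWA (0.7.17), kept short fragments after the Tn5 shift with deepTools (2.3.5) and called peaks per library with MACS2 (2.1.2), with no control; the methods text names a human build, but the processing notes and positions are of GRCm38. The deposited lists give the fold at the summit over local background (a ratio), its −log10 p-value and −log10 q-value, and the summit. Values are not scaled between libraries. Overlapping peaks were merged into regions. The highest fold of a region was ranked in its list, and limma (3.58.1; 4 groups, no block) was fitted to normal scores of these ranks for 47875 regions found in every list, with Benjamini-Hochberg adjustment and a threshold of 0.01; it was tested on simulated data. P-values measure only the spread between these libraries, which may be technical. Whole fragments and local background were solved from fold and p-value and matched 100% of peaks within 1.5 times the rounding of the files. GENCODE M21 gave genes, and the GRCm38 reference the sequences.

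The members and lists were chosen with earlier results of these data known. Named were each member's start-site region, called regions, the largest change in mean percentile at 2 h per gene, the 5 lost and 5 gained regions with the most fragments, at most 6 genes of the wider list and the 3 genes most alike; regions outside this rule, those with an adjusted p under 0.05 or past the threshold on another scale included, were chosen after their values were seen. Alternatives were other ranks, thresholds, merging, windows, a replicate block and leaving out each library.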

Additional observations from a re-analysis of the deposited data

How the results depend on the processing

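The counts rest on 2 libraries a group and a median of 11 to 14 fragments a peak. Of the 64 tested member regions, 1 was called at 2 h and 0 at 1 h; ranking by −log10 p-value gave 2 and 1, recovered fragments 6 and 4, an adjusted p under 0.05 gave 8 and 5, a mean trend with a robust prior 4 and 3 (all tested: 4.8% lower and 5.98% higher at 2 h), and peaks with −log10 q of at least 5 gave 2 and 1, all of them higher, since the Junb region at -11287 bp was then no longer tested. With regions in at least 2 lists, where a missing peak took the lowest score, the counts were 10 at 30 min, 11 at 1 h, 17 at 2 h and 6 for 30 min against the mean of 0 h and 2 h, of 129 members; of all 126504 such regions, 4.63% were lower and 3.23% higher, 5.39% and 4.86%, 5.88% and 5.88%, and 5.32% and 1.95%. A window of 10 kb gave 0 of 50 tested at 2 h and one of 50 kb gave 2 of 112. Of all tested regions, ranking by −log10 p-value called 3.45% lower and 3.24% higher at 2 h, and the stricter peaks 2.59% and 2.64%. The local background, added after the data were seen, gave 8 at 30 min, 17 at 1 h and 17 at 2 h, and 3 start-site regions where the percentile gave 0. On it the shift at 2 h turned to 0.055 for Junb at -11287 bp, -0.43 for Egr1 at -5177 bp and -0.25 for Ier2 at +8055 bp; it is another measure than the fold. By percentile, the call of the Junb region at 2 h was lost without replicate 1 of 0 h or either replicate of 2 h. Those fits leave 1 library in a group and can call little over all tested regions, so the lost call is not particular to this region.

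The windows held 162 regions, 128 with −log10 q of at least 5, 116 at 10 kb and 326 at 50 kb. Lost regions at 30 min numbered 3, and 7 with the stricter peaks or 9 in a window of 50 kb. Gained ones numbered 12, and 7 with the stricter peaks (over all such regions, 4.74% lost and 4.75% gained). At 1 h, 6 were lost, and 3 or 15 in windows of 10 kb or 50 kb, and 15 gained, and 29 in 50 kb. At 2 h, 10 were lost, and 6 or 23 in these windows, and 20 gained, and 35 in 50 kb. Leaving out 1 library gave 5 to 12 lost and 14 to 22 gained at 30 min, 8 to 15 and 17 to 27 at 1 h, and 13 to 21 and 23 to 30 at 2 h. With fewer lists the rule is easier to meet, and the shares over all regions rose too. They were 5.6% to 10.4% lost and 6.02% to 12.8% gained at 30 min. At 1 h they were 7.21% to 12.1% and 9.42% to 16.8%, and at 2 h 8.19% to 13.1% and 11.4% to 18.2%. The windows held 13 more peaks a list at 2 h than at 0 h, and 7.5 with the stricter peaks or 0.5 in lists of equal length. With the replicate block the counts were 0, 0 and 1 at 30 min, 1 h and 2 h, as without it; same-numbered libraries deviated together with correlations of only 0.020 to 0.037, so the numbers were not taken as pairs.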
